A study of Homo sapiens with 6 samples.

Results

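Transcripts of 9 tight junction genes were measured in SW620 cells after knockdown of ECM1. The 9 genes were TJP1, TJP3 and CGN, which encode cytoplasmic scaffold proteins, CLDN1, CLDN3, CLDN4 and CLDN7, which encode claudins, and OCLN and F11R, which encode other transmembrane proteins of the junction. All 9 were found among the 20476 genes of the deposited table. The set was chosen by the measured counts of this same comparison, in which TJP3 was lower with one of the smallest p-values, and was filled with textbook members of the junction. Their values in the comparison are therefore a description and support nothing further.

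SW620 is an established line of human colorectal cancer, first grown from a metastasis in a lymph node. ECM1 encodes a secreted glycoprotein of the extracellular matrix. A stable hairpin directed at it marked 3 libraries (shECM1), and the other 3 held a hairpin with no such target (shNC). Every group thus came from 1 cell line and carried a hairpin. The number of hairpins or clones behind each group is not given in the sources used here, nor is it said that replicates came from separate cultures, so the errors below measure the spread between these libraries, which may be technical. The study asked how ECM1 bears on expression of the chemokine CCL20.

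Tight junctions seal the space between neighbouring epithelial cells near their apical side. Claudins polymerise into the strands of the seal and set which ions pass, occludin and the tricellulin-related proteins share the strands, and the junctional adhesion molecule encoded by F11R binds its like on the next cell. Zonula occludens proteins, among them ZO-1 from TJP1 and ZO-3 from TJP3, bind the claudin tails through PDZ domains and tie them to actin, and cingulin, from CGN, binds both the zonula occludens proteins and the actomyosin and microtubule systems. In the intestine these proteins keep the epithelial barrier, and CLDN1, CLDN3, CLDN4 and CLDN7 are all known from colonic epithelium.

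Library totals ran from 9881720 to 16813951 counts. ECM1 was at 38.8, 19.0 and 52.3 CPM in shNC replicates 1, 2 and 3 and at 8.41 to 14.8 in shECM1. Its direction fits the labels, though ECM1 was not called by edgeR at the threshold used below (adjusted p = 0.0973). CCL20 was at 24.6, 15.7 and 39.6 CPM in shNC and at 11.5 to 17.5 in shECM1, with overlap. For both genes shNC replicate 2 was the lowest control. CPM here are counts brought to a common library total, after scaling by trimmed mean of M values (TMM). The columns of the table carry short names, and their match to the groups was inferred from the letters. On the first principal component, with 58.1% of the variance, shNC replicate 2 stood at 8.64. It lay nearer to the shECM1 libraries at 16.6 to 23.3 than to shNC replicates 1 and 3 at -25.2 and -41.3. The values that this library moves most are therefore also given without it. That choice came from these same data and takes out the control nearest to the knockdown libraries. Fits without it are thus a description and give no support. The colorectal epithelial markers EPCAM, KRT8, KRT18, KRT19, KRT20, CDH1, CDX2, CDH17 and VIL1 were all detected, though KRT20 had 9 to 21 counts per library.

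Start regions are shown for the 3 genes with the lowest log2 fold changes, TJP3, CLDN4 and CGN, and for CLDN7, whose second window held the most matches to the E-box CACCTG. The CLDN7 window was picked after the matches were seen. RefSeq gave 14 windows for 8 of the 9 genes, each from 250 bases before to 50 bases after a transcription start (GRCh38.p14). F11R had no window. The windows of TJP3, CLDN4, CGN and the second window of CLDN7 read as follows, 5′ to 3′ on the strand of the gene, with capitals marking CACCTG on either strand, the E-box bound by Snail and ZEB repressors.
TJP3, first start (chr19:3708134-3708433, plus strand): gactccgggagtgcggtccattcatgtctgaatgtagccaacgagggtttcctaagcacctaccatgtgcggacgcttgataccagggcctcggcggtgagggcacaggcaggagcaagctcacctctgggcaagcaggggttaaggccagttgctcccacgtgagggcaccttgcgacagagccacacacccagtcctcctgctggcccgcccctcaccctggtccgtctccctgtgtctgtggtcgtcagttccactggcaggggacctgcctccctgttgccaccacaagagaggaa
TJP3, second start (chr19:3721487-3721786, plus strand): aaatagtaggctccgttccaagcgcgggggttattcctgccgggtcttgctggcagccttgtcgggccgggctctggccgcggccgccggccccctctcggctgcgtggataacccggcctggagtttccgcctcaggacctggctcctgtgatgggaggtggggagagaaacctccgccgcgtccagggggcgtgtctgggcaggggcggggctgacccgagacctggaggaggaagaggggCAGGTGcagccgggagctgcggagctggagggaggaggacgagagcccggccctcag
CLDN4 (chr7:73830746-73831045, plus strand): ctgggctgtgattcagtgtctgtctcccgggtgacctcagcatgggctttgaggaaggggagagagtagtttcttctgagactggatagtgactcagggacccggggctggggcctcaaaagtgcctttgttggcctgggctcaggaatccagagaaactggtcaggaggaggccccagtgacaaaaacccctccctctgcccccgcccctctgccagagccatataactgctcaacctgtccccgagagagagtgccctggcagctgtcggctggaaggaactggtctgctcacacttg
CGN (chr1:151511137-151511436, plus strand): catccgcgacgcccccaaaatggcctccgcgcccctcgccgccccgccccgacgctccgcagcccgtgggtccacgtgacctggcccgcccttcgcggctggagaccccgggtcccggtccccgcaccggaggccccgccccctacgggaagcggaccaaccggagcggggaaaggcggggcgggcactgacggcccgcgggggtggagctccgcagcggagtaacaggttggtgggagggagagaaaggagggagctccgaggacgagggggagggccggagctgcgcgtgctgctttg
CLDN7, second window (chr17:7262429-7262728, minus strand): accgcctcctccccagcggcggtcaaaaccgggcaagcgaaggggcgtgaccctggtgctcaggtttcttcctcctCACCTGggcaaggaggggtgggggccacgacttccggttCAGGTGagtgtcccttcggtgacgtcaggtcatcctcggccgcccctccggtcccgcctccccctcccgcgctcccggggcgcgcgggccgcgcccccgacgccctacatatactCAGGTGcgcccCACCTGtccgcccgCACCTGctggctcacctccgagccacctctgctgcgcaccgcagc

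TJP3 has 2 annotated starts, and its second window held 1 CACCTG, at base 244, whereas its first held none. CLDN7 held 5 in its second window, CLDN4 and CGN held none, and TJP1, CLDN3 and OCLN held at least 1. In all, 5 of the 8 genes had the motif in some window, 6 of their 14 windows held it, and 20.6% of the 35116 windows of all genes did. The GC box GGGCGG, a site of Sp and Krüppel-like factors, was found in 11 of the 14 windows, against 45% of all windows. Each of the 8 genes had it in at least 1 window. For neither motif was a share per gene computed over all genes, and windows were not matched for GC content. CGN was the most GC-rich at 75.3%, CLDN4 the poorest of the 4 claudins at 59%, and the median of all windows was 58.7%. The CLDN4 window was the only one with the AP-1 sequence TGACTCA (4.95% of all windows), and the CGN window the only one with AACNNGTT, the core bound by grainyhead factors (3.52%). No member window held TATAAA (11.5% of all windows) or the EGR1 sequence GCGTGGGCG (0.795%), and 1 window of TJP1 held GCGGGGGCG (5.07%). These are letter matches on both strands in short windows, GGGCGG and GCGGGGGCG can overlap, and several windows belong to 1 gene.

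Among the scaffold genes, TJP3 stood apart from TJP1. TJP3 (ENSG00000105289, GRCh38 chromosome 19, 3708109 to 3750813, plus strand) was at 24.2, 13.5 and 22.6 CPM in shNC replicates 1, 2 and 3 and at 7.94, 7.39 and 9.07 CPM in shECM1 replicates 1, 2 and 3. The groups did not overlap, the shECM1 libraries lay close together, and shNC replicate 2 lay between them and the other controls. Means were 20.1 ± 5.77 CPM in shNC and at 8.13 ± 0.859 in shECM1 (SD, n = 3 each), from 188 to 316 and 80 to 124 counts per library. The log2 fold change, shECM1 minus shNC, was -1.30 ± 0.22 (SE), a 2.47-fold lower fitted level, and it was -1.51 without shNC replicate 2. With all 6 libraries it ranked number 105 from the lowest among the 12576 genes tested. In such pooled RNA, fewer cells that express a gene and less of its RNA per cell cannot be told apart.

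TJP1 (ENSG00000104067, chromosome 15, 29699367 to 29968865, minus strand), the broadly expressed zonula occludens gene, was at 88.2, 91.4 and 109.2 CPM in shNC and at 84.0, 86.3 and 73.9 CPM in shECM1. Its groups lay side by side without overlap, and the gap between the lowest control and the highest knockdown library was small. The log2 fold change was -0.24 ± 0.12 (SE). CGN (ENSG00000143375, chromosome 1, 151510510 to 151538692, plus strand) was at 63.5, 49.99 and 75.2 CPM in shNC and at 47.0, 46.5 and 37.1 CPM in shECM1. Again the groups did not overlap, and shNC replicate 2 was the control nearest to the knockdown libraries. Its log2 fold change was -0.53 ± 0.16 (SE), a 1.45-fold lower fitted level, and it was -0.66 without shNC replicate 2.

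The ratio of TJP3 to TJP1 within a library does not depend on how libraries are scaled. It was taken from raw counts with no trend on GC content removed, and the GC content of these transcripts differs (63.2% and 44.8%). There were 27.4, 14.8 and 20.7 TJP3 counts per 100 TJP1 counts in shNC and 9.46, 8.56 and 12.3 in shECM1, that is 21.0 ± 6.34 against 10.1 ± 1.94 (SD, n = 3 each). Every knockdown library lay below every control library, with shNC replicate 2 the nearest. The difference of -10.9 became -13.98 without shNC replicate 2 and -7.64 without shNC replicate 1.

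**Figure D1:**
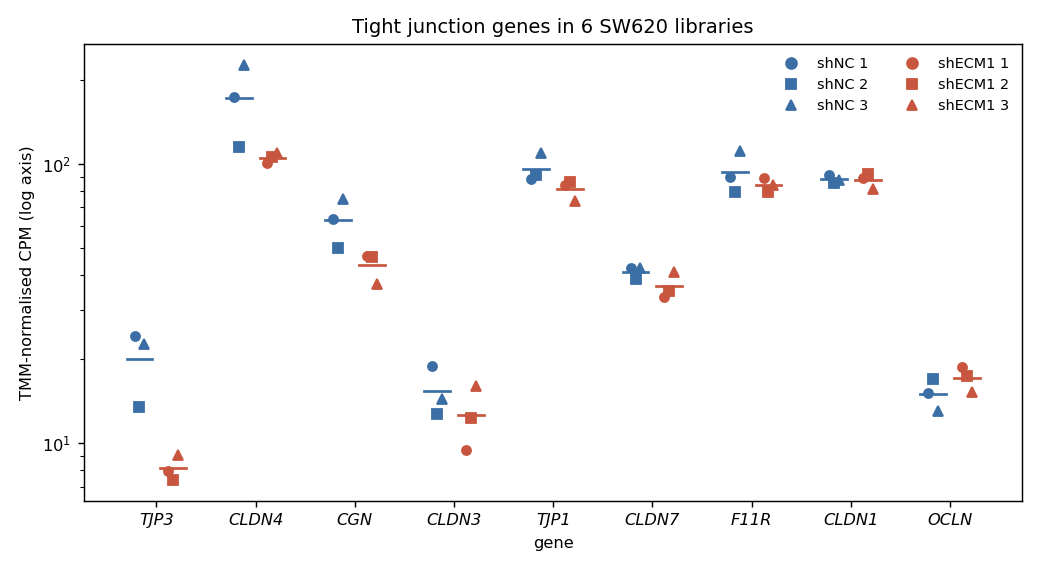
Level of each gene (TMM-normalised CPM, log axis) in every library, with shNC in blue, shECM1 in red, a symbol per replicate and a bar at each group mean. TJP3, CLDN4, CGN and TJP1 have no overlap between the groups, and shNC replicate 2 (blue square) is the lowest control for TJP3, CLDN4 and CGN.

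Of the claudins, CLDN4 differed most between the groups. CLDN4 (ENSG00000189143, chromosome 7, 73799542 to 73832693, plus strand), a sealing claudin of colonic epithelium, was at 173.6, 115.5 and 227.1 CPM in shNC and at 100.6, 106.3 and 109.9 CPM in shECM1. The controls spread widely, the knockdown libraries hardly at all, and shNC replicate 2 lay just above the latter. Means were 172 ± 55.8 and 105.6 ± 4.70 CPM (SD, n = 3 each), and the log2 fold change was -0.70 ± 0.19 (SE), a 1.63-fold lower fitted level. Its size depended on the controls, at -0.45 without shNC replicate 3 and -0.91 without shNC replicate 2.

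CLDN3 lies next to CLDN4 on chromosome 7 (ENSG00000165215, 73768997 to 73770270, minus strand) and overlapped between the groups, unlike CLDN4. A difference between the fold changes of these neighbours was not tested. CLDN3 was at 18.9, 12.8 and 14.4 CPM in shNC and at 9.43, 12.3 and 16.0 CPM in shECM1, with a log2 fold change of -0.27 ± 0.21 (SE). Leaving out 1 library moved that value between -0.48 and -0.10, and without shECM1 replicate 3 the groups no longer overlapped, on the lower side. CLDN7 (ENSG00000181885, chromosome 17, 7259903 to 7263983, minus strand), a claudin that binds EPCAM, was at 42.3, 38.9 and 42.4 CPM in shNC and at 33.4, 35.2 and 41.2 in shECM1. Those groups overlapped through shECM1 replicate 3 (-0.17 ± 0.12 SE). CLDN1 (ENSG00000163347, chromosome 3, 190305701 to 190322475, minus strand), a barrier claudin, was at 91.5, 85.8 and 87.5 CPM in shNC and at 89.3, 92.5 and 81.5 in shECM1. Its group means, 88.3 ± 2.88 and 87.7 ± 5.63 CPM (SD, n = 3 each), differed by less than either spread, and the log2 fold change was -0.01 ± 0.10 (SE).

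The make-up of the 4 claudins in each library restates the same counts without any scaling, though with no trend on GC content removed. The 4 shares add up to the whole, so a lower share of CLDN4 raises the summed share of the others. CLDN4 held 53.2%, 45.6% and 61.1% of their summed counts in shNC and 43.2%, 43.2% and 44.2% in shECM1, so the groups did not overlap. The difference of -9.80 percentage points became -5.90 without shNC replicate 3 and -13.6 without shNC replicate 2. CLDN1 held 28.5% ± 5.19 in shNC and 36.2% ± 3.01 in shECM1 (SD, n = 3 each), with overlap through shNC replicate 2 at 33.9%. CLDN7 was at 13.3% ± 1.99 and 15.1% ± 1.30, and CLDN3 at 4.90% ± 0.964 and 5.17% ± 1.20, both with overlap. The higher mean share of CLDN1 stood beside CPM levels that overlapped between the groups, and the lower share of CLDN4 beside CPM levels that did not.

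**Figure D2:**
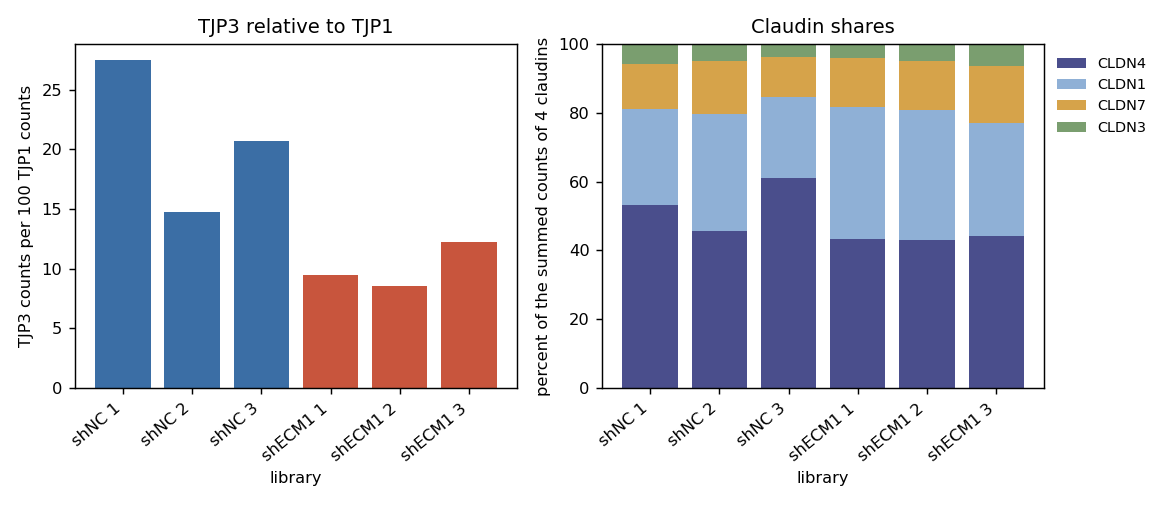
Left, TJP3 counts per 100 TJP1 counts in each library, from 14.8 to 27.4 in shNC and 8.56 to 12.3 in shECM1. Right, the percent of the summed counts of the 4 claudins held by each, where the CLDN4 share is between 45.6% and 61.1% in shNC and between 43.2% and 44.2% in shECM1.

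The other transmembrane genes overlapped between the groups. OCLN (ENSG00000197822, chromosome 5, 69492292 to 69558104, plus strand), which encodes occludin, was at 15.1, 16.95 and 13.1 CPM in shNC and at 18.8, 17.4 and 15.3 in shECM1. It was the only one of the 9 genes with a positive log2 fold change (0.18 ± 0.15 SE). OCLN has a transcribed pseudogene copy on chromosome 5, OCLNP1, and its count is uncertain for that reason. F11R (ENSG00000158769, chromosome 1, 160995211 to 161021348, minus strand), which encodes junctional adhesion molecule A, was at 89.7, 79.5 and 111.1 CPM in shNC and at 89.0, 79.4 and 84.1 in shECM1 (-0.15 ± 0.13 SE). The spread of its controls, with shNC replicate 3 highest, was wider than the difference. F11R shares 36.6% of its exon length with the overlapping gene AL591806.3 and CLDN7 shares 12.3% with its neighbours, and how such reads were counted is not given in the sources used here.

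Of the 9 genes, 8 had a negative log2 fold change, and their median was -0.24, where 48.6% of all tested genes were negative and the median was 0.01. In 4 of the 9 every shECM1 library lay below every shNC library, as it did in 13.2% of all genes tested, and in 0 of the 9 it lay above, against 11.2%. Either way, 24.4% of all genes had groups without overlap. At an adjusted p under 0.05 (Benjamini-Hochberg), the quasi-likelihood test of edgeR called 0 of 12576 genes (0%), and so none of the 9. At an unadjusted p under 0.05 it gave 2827 genes (22.5%), with 14.2% lower and 8.31% higher, and TJP3, CLDN4 and CGN were among them. limma-voom also called 0 genes, with 2776 at an unadjusted p under 0.05. DESeq2 called 701 of 11600 (6.04%), with 5.09% lower and 0.957% higher, and these held the same 3 of the 9. Without shNC replicate 2, edgeR called 3037 genes (23.9%), with 14.1% lower and 9.73% higher, again with those 3. With no filter on low counts it called 505 genes (3.08%), with 2.83% lower and 0.256% higher, and TJP3 and CLDN4 but not CGN were among them. Since the comparison itself led to the choice of genes, nothing is read from these shares.

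**Figure D3:**
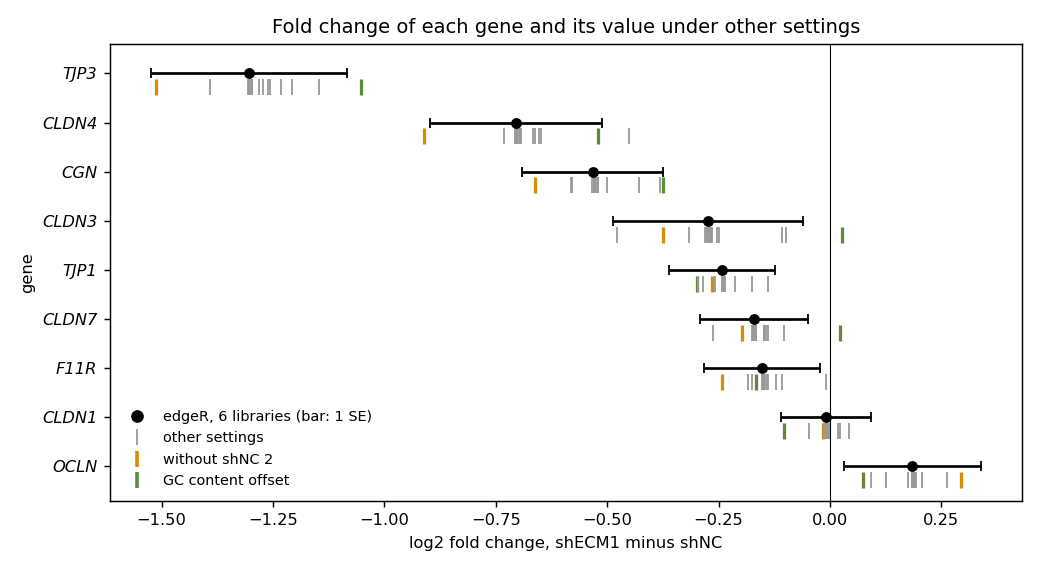
Log2 fold change of each gene (shECM1 minus shNC) from edgeR on all 6 libraries, with a bar of 1 SE, and ticks for its value under 15 other settings. TJP3 lies between -1.51 and -1.05 in all of them, whereas CLDN3, CLDN7 and CLDN1 reach or cross 0 in some.

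The GC content of the transcripts differed widely among the 9 genes, from 39.9% in OCLN and 41.5% in CLDN1 to 63.2% in TJP3 and 69.2% in CLDN3. With a trend on GC content removed from each library, the log2 fold change was -1.05 for TJP3, -0.52 for CLDN4 and -0.37 for CGN, nearer to 0 than before. CLDN3 and CLDN7 moved to 0.03 and 0.02, and TJP1 to -0.30. Only TJP3 and TJP1 of the 9 genes then kept groups without overlap, and the share over all genes was not computed for this setting. What part GC content played in the differences was not tested further.

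Per kilobase of annotated exon, the level in shNC was highest for CLDN4 (36.6 ± 11.9 CPM per kilobase), followed by CLDN1 (24.1 ± 0.787), F11R (18.4 ± 3.18), CLDN7 (16.5 ± 0.799), CLDN3 (12.045 ± 2.47), CGN (9.51 ± 1.91), TJP1 (8.55 ± 1.01), TJP3 (4.77 ± 1.37) and OCLN (2.23 ± 0.285). In shECM1 the order ran CLDN1 (24.0 ± 1.54), CLDN4 (22.5 ± 1.0005), F11R (16.6 ± 0.947), CLDN7 (14.7 ± 1.64), CLDN3 (9.89 ± 2.59), TJP1 (7.23 ± 0.586), CGN (6.58 ± 0.840), OCLN (2.54 ± 0.259) and TJP3 (1.93 ± 0.204). All are mean ± SD with n = 3. Ranges overlapped in both groups for CLDN4 and CLDN1, for F11R and CLDN7, for CLDN3 and the next gene, and for CGN and TJP1. Overlap of ranges does not compare genes within each library, and whether those neighbours differ was not tested. TJP3 lay above OCLN in every shNC library and below it in every shECM1 library on this scale. The order rests on the summed length of all annotated exons, and length scaling would not apply if reads came from transcript ends only, as in the droplet protocol of the labels.

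The genes most like TJP3 over the 6 libraries were sought among the 11523 other tested genes with a mean log2 CPM of at least 1. Likeness was the root mean square difference of log2 CPM after each gene was centred on its own mean. The nearest were CDH24, a classical-type cadherin (0.12), TGFB1I1, a focal adhesion adaptor (0.15), SMPD3, a neutral sphingomyelinase (0.15), HR, a nuclear corepressor (0.15), and AMOT (0.16). AMOT encodes angiomotin, a scaffold that binds tight junction polarity proteins. CDH24 was at 9.48, 5.75 and 11.6 CPM in shNC and at 3.57, 3.34 and 3.81 in shECM1. AMOT was at 8.12, 5.32 and 9.52 CPM in shNC and at 3.57, 3.34 and 4.02 in shECM1. All 5 shared the intermediate position of shNC replicate 2, which follows from choosing them by their likeness to TJP3 in these libraries. That library also lay nearer to the shECM1 libraries on the first principal component, so its position is not particular to these genes. All 5 were low, at under 20 CPM in every library. Among the other 8 junction genes, the nearest to TJP3 was CLDN4, at a larger distance of 0.34, while TJP1 and F11R were the closest pair (0.13).

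**Figure D4:**
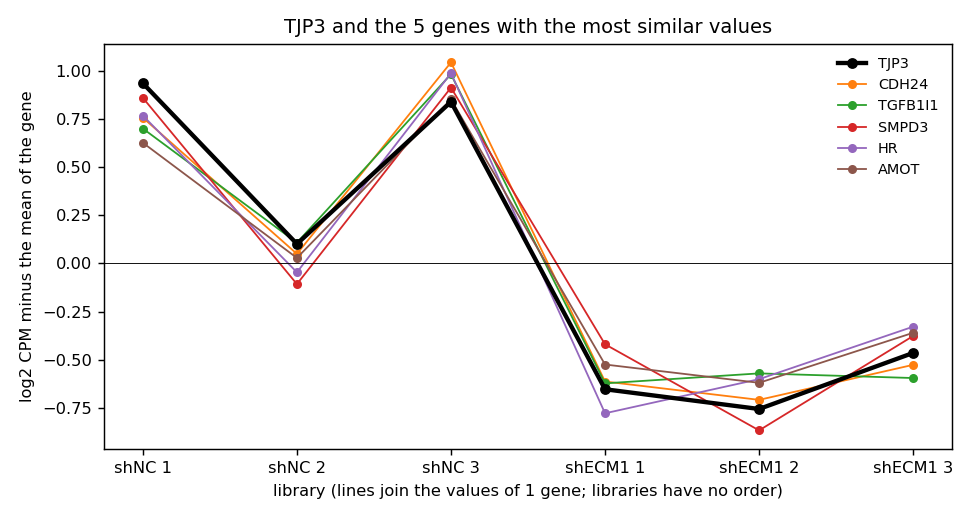
Log2 CPM of TJP3 (black) and of the 5 genes with the most similar values, each minus its own mean over the 6 libraries. All 6 lines are high in shNC replicates 1 and 3, intermediate in shNC replicate 2 and low in the shECM1 libraries. The 5 genes were chosen for this likeness, so the shared shape is no separate result.

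The rest of the pathway was followed in 90 further genes, of which 59 had enough counts to be tested. edgeR called 0 of the 59. At an unadjusted p under 0.05, 15 of them (25.4%) were lower and 0 higher, where 14.2% and 8.31% of all genes tested were. Taken in either direction, that 25.4% was near the 22.5% of all genes. In 11 of the 59 (18.6%) the groups did not overlap, less than the 24.4% of all genes. All 11 were on the lower side, where 13.2% of all genes were. Without shNC replicate 2, edgeR called 15 of the 59 at an adjusted p under 0.05 (25.4%), near the 23.9% of all genes, and all 15 were lower, against 14.1% of all genes. Of the genes named below, these held AMOT, CLDN12, ESAM, MICALL2, ARHGEF2, SPINT1, SPINT2, ELF3, KLF5 and SNAI1. Their edgeR adjusted p without that library ran from 0.000527 for MICALL2 to 0.0361 for SPINT2. Because that library was singled out from these data, the calls and p-values without it are not used as support. DESeq2 called 4 of the 52 to which it gave an adjusted p, AMOT, MICALL2, ARHGEF2 and ELF3, all lower (7.69%, against 5.09% of all genes). Over the 59 tested genes the median log2 fold change in edgeR was -0.19, beside 0.01 over all genes. It was negative in 38 of the 59 (64.4%), against 48.6% of all genes. The adjusted p-values in the next paragraphs are edgeR's, over all 12576 genes, unless DESeq2 is named.

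Of 11 other scaffold genes 7 were tested. AMOT had a log2 fold change of -1.07 ± 0.25 (SE; adjusted p = 0.0973 by edgeR and 0.0109 by DESeq2) and was lower in every shECM1 library than in any shNC library. AFDN, which encodes the actin-binding scaffold afadin, was at 273.2 ± 32.2 CPM in shNC and at 221.2 ± 26.6 in shECM1 (adjusted p = 0.18 by edgeR). MAGI1, an inverted guanylate kinase scaffold, was at 32.8 ± 0.560 and 33.2 ± 3.41 CPM, with a log2 fold change of 0.01 (adjusted p = 0.949 by edgeR).

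Of 20 other claudins only 6 were tested, and CLDN8, CLDN14, CLDN17, CLDN18, CLDN24 and CLDN25 had 0 counts in every library. CLDN12 was at 60.3 ± 11.2 CPM in shNC and at 44.7 ± 5.21 in shECM1, with overlap (log2 fold change -0.43 ± 0.15 SE, adjusted p = 0.14 by edgeR). CLDN11, better known from myelin, was at 34.2 ± 1.08 and 33.3 ± 1.64 CPM (adjusted p = 0.869 by edgeR). CLDN20 was near 1 CPM in both groups (adjusted p = 0.644 by edgeR). CLDN2, a pore-forming claudin, had 6 counts over the 6 libraries. Counts at or near 0 are not read as absence here, because CDC42, a GTPase that nearly every cell uses, also had only 0 to 7 counts per library.

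Of 11 other transmembrane genes 6 were tested. ESAM, an adhesion molecule chiefly of endothelium, had a log2 fold change of -1.57 ± 0.60 (SE) at levels of 0.0730 to 1.72 CPM, with overlap (adjusted p = 0.168 by edgeR). LSR, an angulin of tricellular contacts, was at 105.1 ± 14.9 CPM in shNC and at 86.2 ± 15.3 in shECM1 (adjusted p = 0.271 by edgeR). MARVELD3, a relative of occludin, was at 17.2 ± 0.924 and 17.2 ± 2.20 CPM (adjusted p = 0.995 by edgeR).

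Polarity genes, which place the junction at the apical side, were tested for 13 of 14, and 0 of the 13 had an unadjusted p under 0.05 in edgeR, against 22.5% of all genes. The smallest p-values were those of LLGL1 (log2 fold change -0.29 ± 0.13 SE) and PRKCZ, the atypical protein kinase C zeta (-0.20 ± 0.12 SE). LLGL2 was at 174.3 ± 6.19 CPM in shNC and at 154.1 ± 26.9 in shECM1, and PRKCI at 76.5 ± 4.58 and 73.3 ± 9.45.

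Of 13 junction signalling genes 11 were tested, and 4 (36.4%) had an unadjusted p under 0.05 in edgeR, all lower. Over all genes the share was 22.5% in either direction and 14.2% on the lower side. By that rule 2 of 7 other scaffolds (28.6%), 1 of 6 other claudins (16.7%) and 1 of 6 other transmembrane genes (16.7%) were lower. So were 2 of 5 claudin partners and proteases (40%) and 5 of 11 transcription factors (45.5%). These lists are small, and differences between them were not tested. MICALL2, an effector of Rab13 in the delivery of junction proteins, was at 55.6, 38.7 and 62.3 CPM in shNC and at 28.2, 24.7 and 33.4 in shECM1. Its groups did not overlap, and shNC replicate 2 was the lowest control (log2 fold change -0.86 ± 0.18 SE, adjusted p = 0.0973 by edgeR and 0.00142 by DESeq2). ARHGEF2, the exchange factor GEF-H1 that cingulin holds at junctions, was at 420.2 ± 123 CPM in shNC and at 263.4 ± 27.5 in shECM1 (-0.67 ± 0.18 SE, adjusted p = 0.106 by edgeR and 0.0132 by DESeq2). In shNC replicate 2 it was at 289.2 CPM, above the highest shECM1 library at 280.6. YBX3, which encodes the ZO-1-associated factor ZONAB, was at 214.1 ± 11.9 and 222.5 ± 12.5 CPM (adjusted p = 0.759 by edgeR).

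All 5 genes of claudin partners and junction proteases were tested. EPCAM, the partner of CLDN7, was at 471.6 ± 25.8 CPM in shNC and at 518.6 ± 30.4 in shECM1 (log2 fold change 0.14, adjusted p = 0.413 by edgeR). SPINT1 and SPINT2, inhibitors of the protease matriptase, had log2 fold changes of -0.30 ± 0.13 and -0.24 ± 0.11 (SE), neither of them called by edgeR (adjusted p = 0.202 and 0.219).

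Of 16 transcription factors known to act on epithelial junction genes 11 were tested. ELF3, an epithelial ETS factor, was at 161.8, 117.2 and 186.0 CPM in shNC and at 96.0, 101.0 and 114.7 in shECM1. The groups were barely apart, because shNC replicate 2 lay next to the highest shECM1 library (-0.58 ± 0.16 SE, adjusted p = 0.105 by edgeR and 0.0183 by DESeq2). KLF5 was at 302 ± 66.8 CPM in shNC and at 222.3 ± 14.0 in shECM1, with overlap (adjusted p = 0.131 by edgeR). The Snail and ZEB repressors, which bind CACCTG, were chosen for mention after their values were seen. SNAI1 was at 8.61 ± 1.96 CPM in shNC and at 5.50 ± 0.854 in shECM1, without overlap (log2 fold change -0.64 ± 0.22 SE, adjusted p = 0.138 by edgeR). SNAI2 was at 9.71 ± 2.73 and 8.44 ± 0.856 CPM (adjusted p = 0.595 by edgeR), and ZEB1 at 16.4 ± 1.08 and 15.8 ± 4.36 (adjusted p = 0.878 by edgeR), both with overlap. ZEB2 had 0 to 3 counts per library and was not tested.

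**Figure D5:**
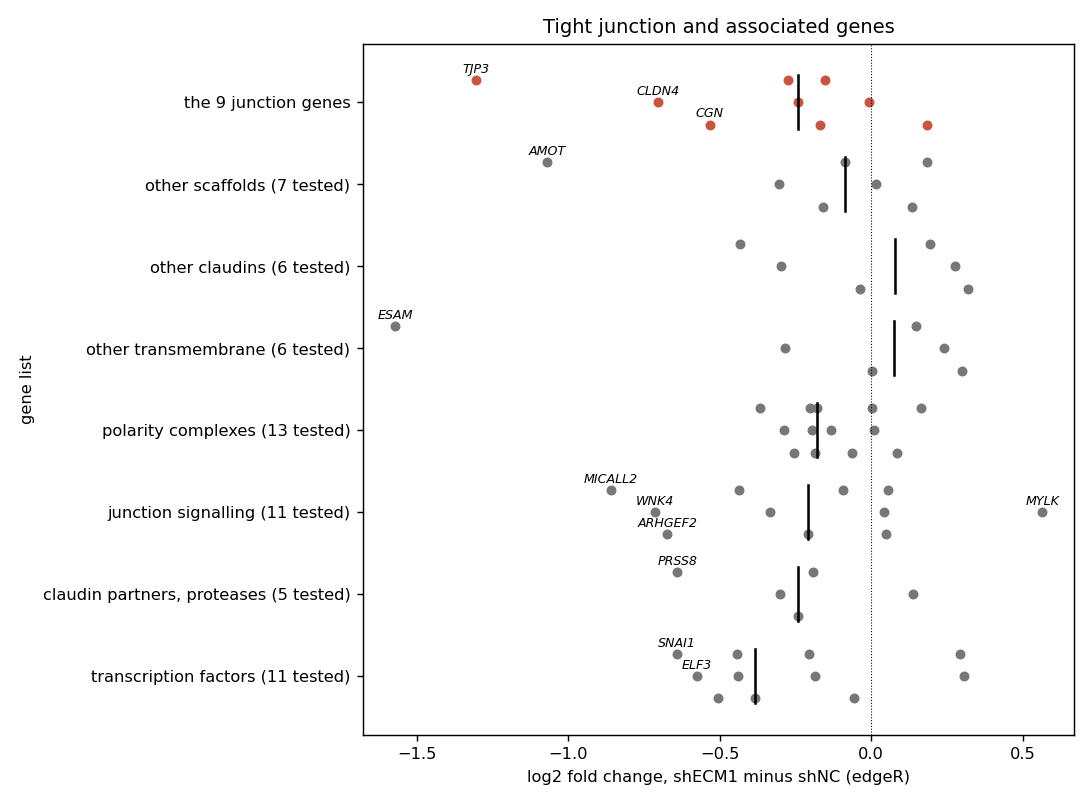
Log2 fold change (shECM1 minus shNC, edgeR) of the 9 junction genes in red and of the tested genes of 7 related lists in grey, with a bar at each median and names beyond -0.52 and 0.4. The lowest points are ESAM, TJP3 and AMOT.

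Marker genes of the cell types that a culture could hold were summed in each library. Of 8 immune markers PTPRC, CD3E and MS4A1 were at 0 in every library, and the list summed to 74.4 to 190.9 CPM in shNC and at 48.0 to 77.0 in shECM1, chiefly from CD68. Of 9 fibroblast markers COL3A1, PDGFRA and FAP were at 0, while COL1A1 had 98 to 301 and LUM 102 to 178 counts per library. The fibroblast sums were 23.6 to 35.5 CPM in shNC and 16.7 to 20.9 in shECM1. Of 6 endothelial markers KDR and EMCN were at 0, while VWF had 58 to 128 and PECAM1 19 to 45 counts per library. The endothelial sums were 9.72 to 12.2 CPM in shNC and 8.04 to 9.21 in shECM1. Here too, counts of 0 are not read as absence. The epithelial list summed to 12210 to 18007 CPM in shNC and at 11858 to 13207 in shECM1. The part of these markers in the differences of the junction genes was not tested.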

How the data were processed

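RNA from 6 SW620 libraries, 3 with a hairpin against ECM1 and 3 with a control hairpin, was analysed from 1 table of raw counts deposited by the authors, whole numbers for each gene. The submitters' processing notes list featureCounts, STAR, fastp, Seurat and DESeq2 and the builds GRCh38 and hg38, with no roles. Versions, annotation and use of strand: not given in the sources used here. Extraction of total RNA and a droplet kit for single cells both appear per the labels, and the series text speaks of single-cell sequencing, so a column may hold either a bulk library or cells added together. Each was treated as 1 library. Columns were matched to titles by letter and number, an inference from names. With the letters the other way round, all directions here would reverse.

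Symbols were found for 20462 of 20476 identifiers. GENCODE 29 (GRCh38) gave positions, exon lengths and GC content for 20244. In R 4.3.3, edgeR 4.0.16 tested 12576 genes that passed filterByExpr, with TMM scaling, glmQLFit and glmQLFTest without covariates, and Benjamini-Hochberg adjustment with a threshold of 0.05. SEs were taken as |log2 fold change| over the root of the F statistic. Alternatives were other scaling factors, other filters, DESeq2 1.42.0, limma-voom (limma 3.58.1), the replicate block, a loess trend on GC content, and leaving out each library. The code was tested on simulated counts, which does not bear on why edgeR and DESeq2 differ in their number of calls. No pair of columns was identical, and the smallest chi-square per gene was 3.30, where sampling noise gives about 1.

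The members and lists were chosen with earlier results of these data known. Named genes were the 9 members and, per list, the 2 with the smallest p and the 2 with the highest mean CPM, plus the 5 nearest to TJP3. Some items are not reported here. Any further gene was picked for mention with its values known. Depth sets the precision of low genes: TJP3 rested on 80 to 316 counts per library.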

Additional observations from a re-analysis of the deposited data

How the results depend on the processing

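The log2 fold changes of the 9 genes were recomputed under 15 other settings, 135 values in all, and 130 kept their sign. The exceptions were CLDN1 with library size only (0.017) and when leaving out 1 library (from -0.046 to 0.043, with 0.022 without shNC replicate 1), and CLDN3 (0.026) and CLDN7 (0.023) with the GC content offset, under which CLDN1 also moved to -0.104. TJP3, CLDN4, CGN, TJP1 and F11R stayed negative and OCLN positive under all 15, although F11R came to -0.01 when shNC replicate 3 was left out. With the GC content offset the groups did not overlap in 2 of the 9 genes on the lower side, in place of 4. Leaving out 1 library gave 4 to 6 on the lower side, with CLDN7 and F11R added without shNC replicate 2 and CLDN3 and CLDN7 without shECM1 replicate 3. On the higher side leaving out 1 library gave 0 to 1, the 1 being OCLN without shNC replicate 2 or without shECM1 replicate 3. Groups with fewer libraries separate more easily. The share of all tested genes without overlap was not computed under these settings or with the GC content offset. Nothing is therefore read from these counts. The difference in the CLDN3 share of the 4 claudins changed sign, to -0.249 percentage points without shNC replicate 3 and -0.372 without shECM1 replicate 3, with 0.823 at the other end of the range.

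The number of genes called was 505 with no count filter, 701 with DESeq2 and 0 with edgeR as fitted, and of the further genes tested 4 of 80, 4 of 52 and 0 of 59 were called. Leaving out 1 library gave 0 to 3037 genes and 0 to 15 of the further genes. The highest values came without shNC replicate 2, where the 15 of 59 were 25.4% against 23.9% of all genes, and the others were 0. With the replicate block, 0 genes were called and TJP3 was at -1.26, and the block changed no call. The replicate numbers did not pair the libraries, with correlations of same-numbered deviations from -0.18 to -0.05, and none of the shNC libraries correlated best with its own number. The causes of these shifts were not tested. Depth limits the low genes most, and genes such as CLDN2 could not be compared at these counts.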
